A study of Mus musculus with 2 samples.

Results

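Metalloproteases are zinc enzymes that cut proteins of the extracellular matrix and of the cell surface, and the genes described here are those whose symbol is Mmp, Timp, Adam, Adamts or Adamtsl followed by digits. The rule took 85 of the 33696 genes in the files: 34 Adam, 23 Mmp, 19 Adamts, 5 Adamtsl and 4 Timp genes. They were followed across the cell classes of the mouse dura mater, the tough outer membrane around the brain, in mice that had sham surgery (sham) and in mice examined 14 days after a jugular venous ligature (JVL-14). Both groups were female mice, and their dura was peeled from the skullcap, digested with collagenase D and DNase I, combined from 2 meninges per well and sorted as viable singlets before 20000 cells were loaded for 3' droplet sequencing. Each group is 1 library. The number of mice in it, their strain and age, and the time since sham surgery are not given in the sources used here.

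Matrix metalloproteases (Mmp genes) cut collagens, gelatin and other matrix proteins, and the tissue inhibitors (Timp genes) bind their active site. ADAM proteins sit in the cell membrane and release growth factors, cytokines and receptor parts, while ADAMTS proteins are secreted and process proteoglycans and procollagens. ADAMTS-like proteins share the matrix-binding domains of the ADAMTS family without the protease domain. In connective tissue these genes are best known in fibroblasts and bone-forming cells, and neutrophils store several of the enzymes in granules.

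After filtering, 4672 sham and 2471 JVL-14 cells were kept, with 28391910 and 15315922 UMIs (unique molecular identifiers, counts of captured RNA molecules) and medians of 4502.5 and 4530 UMIs per cell. The 2 libraries share 2 barcode sequences. Cells were clustered without the member genes and named from other marker genes, so no member defines a class, and a name below means cells like that type. In the cells called arachnoid barrier (420 sham and 132 JVL-14 cells), Slc4a10 was at 839 and 878 CPM (UMIs of the gene per 1000000 UMIs of the class). Slc47a1 was at 711 and 715 CPM, Cldn11 at 293 and 379 and Ptgds at 239 and 203. Cdh1 was at only 1.94 and 6.01 CPM and Dpp4 was lower still. The name rests on 5 raised markers of the list, with Slc4a10 and Slc47a1 at the highest levels. The cells called tendon cells (364 and 179) were named from a list of chondrocyte and tendon genes and were led by Chad and Comp. Tnmd was at 109 and 184 CPM, Scx at 28.6 and 47.3 and Col2a1 at 0.806 and 0.845. The fibroblast list scored higher for their cluster, as it did for the arachnoid barrier cluster. The short name does not tell tendon cells from chondrocytes. The neutrophil precursors (79 and 131 cells) also held the B precursor marker Vpreb3, at 615 and 1367 CPM. Skeletal muscle cells were 249 in sham and 3 in JVL-14, and muscle RNA was spread over sham classes: Acta1 was at 117 CPM in sham and 2.09 in JVL-14 fibroblasts. The members summed to only 89.8 CPM in sham muscle cells.

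Values are CPM of summed UMIs with exact Poisson 95% intervals in brackets, and ratios are JVL-14 over sham with exact conditional binomial 95% intervals. Both cover counting error only and treat UMIs as independent. With 1 library per group there is no replicate check and no p-value, and mouse, dissection and library cannot be told apart from the ligature. The 3' method counts molecules at their ends, so CPM was not divided by gene length. A gene was measured in a class if its summed count and mean CPM reached 20, and a ratio is called past 1.5-fold if it is at least 1.5-fold in either direction with an interval off 1. The 13 classes compared held 50 or more cells from both libraries. Fibroblasts had 916 and 467 cells, macrophages 716 and 346, monocytes 232 and 100, neutrophils 181 and 112, and osteoblast lineage cells 86 and 60.

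Of the 85 members, 18 had no UMI in any retained cell, 22 had 1 to 99 and 45 had at least 100. The silent genes were mostly ADAMs known from the testis, such as Adam2, Adam24 and Adam29, together with Mmp1a, Mmp1b, Mmp7 and Mmp21. The 4 inhibitors gave 39.6% of all member UMIs in sham and 34.0% in JVL-14, ahead of the 23 Mmp genes (21.8% and 25.4%), the Adamts genes (18.5% and 18.9%), the Adam genes (12.97% and 15.2%) and the Adamtsl genes (7.15% and 6.48%). These shares also follow which cells each library holds. Summed over all members, osteoblast lineage cells stood highest among the compared classes, at 6307 CPM in sham and 5351 in JVL-14, followed by tendon cells (4173 and 3992) and fibroblasts (3693 and 3647). Neutrophils (3513 and 3181) were close to these stromal cells, whereas B cells had 202 and 246.

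Most members with at least 100 UMIs kept their leading class across the libraries. In 35 of 45 the same compared class was highest in sham and in JVL-14. A stromal class was highest in both libraries for 24 of the 45, counting members whose leading stromal class changed. For 20 of all 45 the interval of the leading class lay above those of all other compared classes in both libraries. Osteoblast lineage cells led for 9 members (Mmp2, Mmp14, Timp1, Adamts5, Mmp23, Adamts10, Mmp13, Adam12 and Adamts4). Schwann or glial cells led for 7 (Timp3, Adam17, Adam23, Mmp15, Timp4, Adamtsl5 and Adam11), where Timp4 was at only 4.19 and 21.2 CPM against 529 and 45.1 in blood endothelial cells, which were not compared. The lead was with arachnoid barrier cells for 5 (Adamts1, Adamtsl1, Adamtsl3, Adam9 and Mmp11), and tendon cells (Timp2, Adamts2, Adamts17 and Adamts3) and neutrophils (Mmp8, Mmp9, Adam8 and Mmp25) for 4 each. Fibroblasts led for Adamts15 and Mmp3, olfactory neurons for Mmp16 and Adam28, B cell precursors for Adam19 and macrophages for Adam15.

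**Figure D1:**
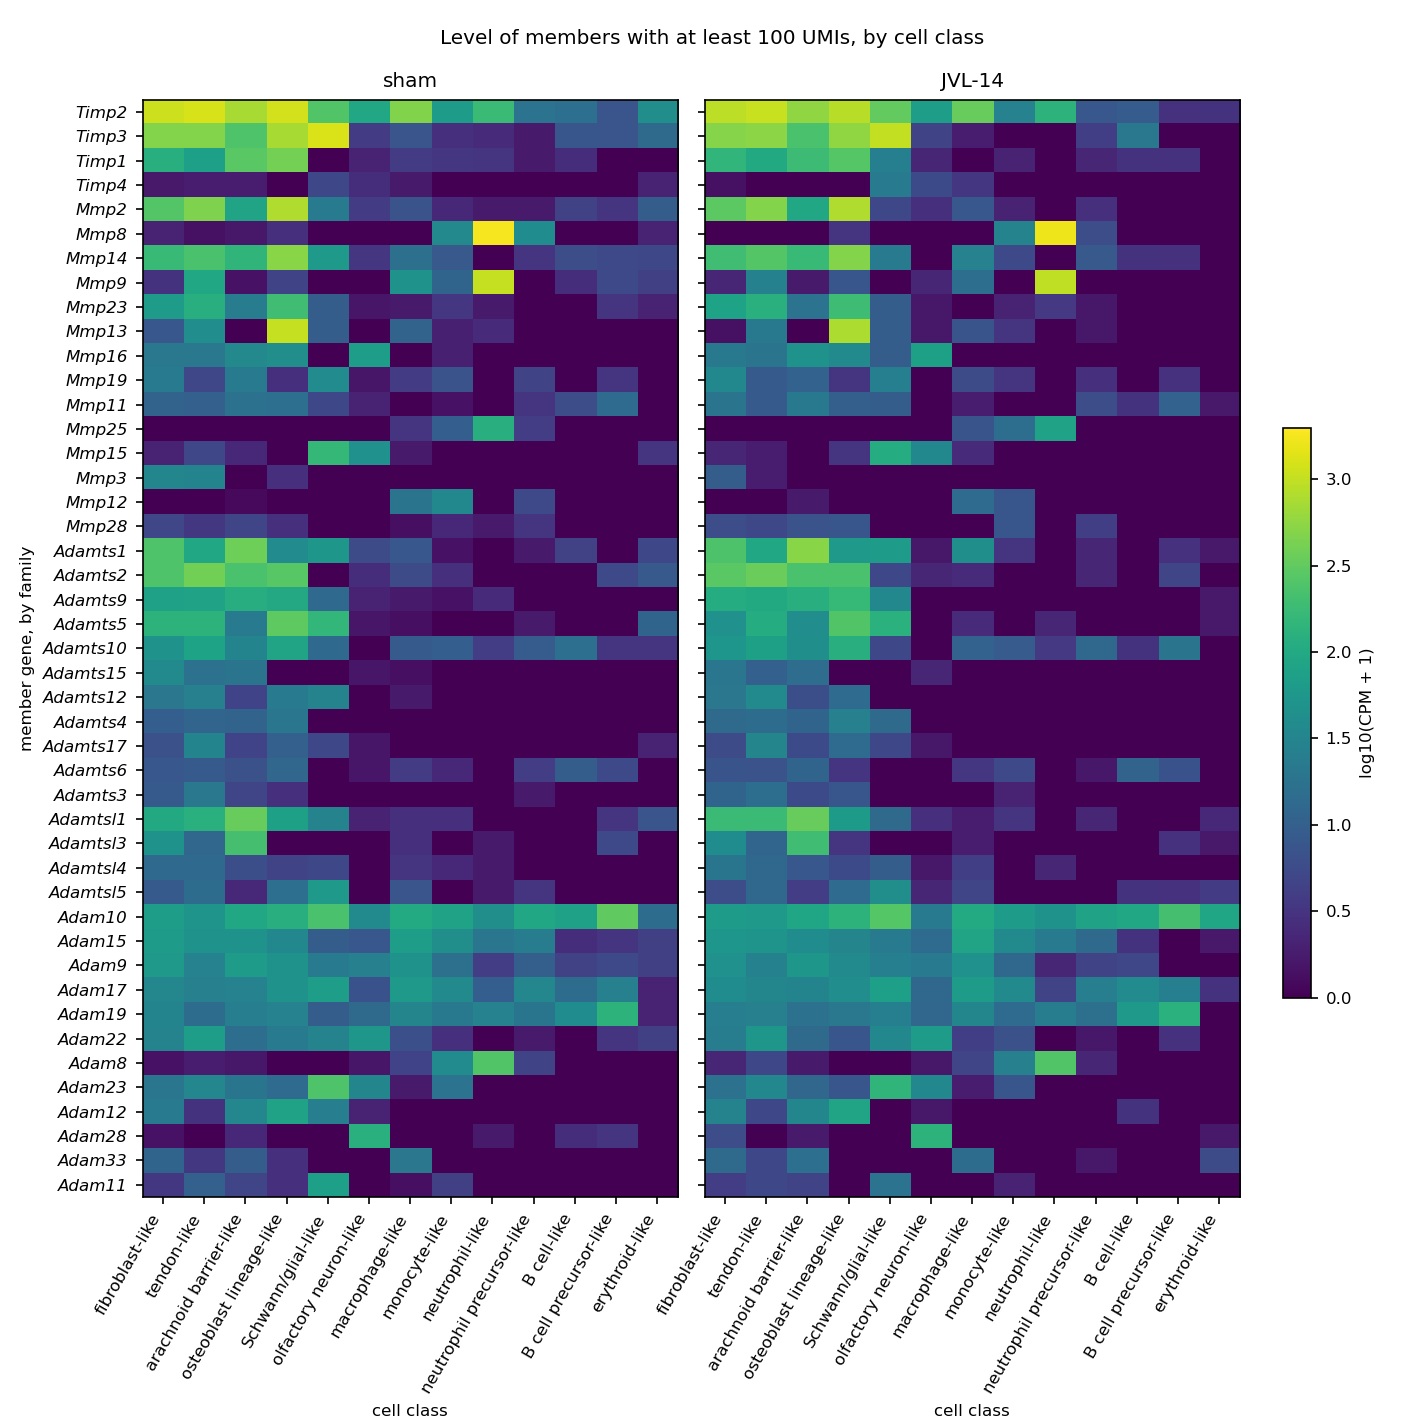
Level of the 45 members with at least 100 UMIs (rows, by family) in the 13 compared cell classes (columns), as log10(CPM + 1), in sham (left) and JVL-14 (right). Timp2, Mmp2, Mmp14 and Adamts2 are bright in the stromal classes at the left of each panel, Timp3 is brightest in Schwann or glial cells, and Mmp8 and Mmp9 in neutrophils.

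Several Mmp genes lie side by side on mouse chromosome 9 and yet were found in different cells, so the sequences just before their starts are shown. Of the members, 54 matched RefSeq promoter windows (build GRCm38.p6, 250 bases before to 50 after a start; the files themselves use mm39). The heptamer bound by AP-1 factors (TGACTCA or, on the other strand, TGAGTCA) was in a window of 10 of these 54 (18.5%) and of 1607 of 27025 genes in the table (5.95%). Of 10 Mmp genes between positions 7272264 and 7692390 of chromosome 9, 7 held it (Mmp1a, Mmp1b, Mmp3, Mmp7, Mmp10, Mmp12 and Mmp13) and 3 did not (Mmp8, Mmp20 and Mmp27). The 100 bases before the start follow for the 4 of these genes with at least 100 UMIs, 5′ to 3′ on the plus strand with the heptamer in capitals. They lie at chr9:7272414-7272513 (Mmp13), chr9:7445722-7445821 (Mmp3), chr9:7347274-7347373 (Mmp12, the one of its 2 listed starts with a match) and chr9:7558329-7558428 (Mmp8, no match in the window).
Mmp13: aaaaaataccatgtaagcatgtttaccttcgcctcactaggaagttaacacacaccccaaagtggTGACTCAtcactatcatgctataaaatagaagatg
Mmp3: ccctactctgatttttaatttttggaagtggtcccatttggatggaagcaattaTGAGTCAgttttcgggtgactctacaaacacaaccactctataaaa
Mmp12: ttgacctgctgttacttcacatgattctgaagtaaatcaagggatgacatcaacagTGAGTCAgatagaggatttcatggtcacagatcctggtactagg
Mmp8: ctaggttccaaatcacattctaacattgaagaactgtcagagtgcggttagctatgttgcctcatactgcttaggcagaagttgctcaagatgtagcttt
The heptamer begins 35, 46 and 44 bases before the start in Mmp13, Mmp3 and Mmp12. A match describes these letters and shows no bound factor.

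Timp2, the inhibitor that also takes part in the activation of MMP2 at the cell surface, was the most abundant member overall and was lower in JVL-14 in most classes. It was at 1270 CPM in sham and 1041 in JVL-14 tendon cells, 1202 and 874 in osteoblast lineage cells, 1133 and 940 in fibroblasts, 746 and 560 in arachnoid barrier cells and 479 and 343 in macrophages. The JVL-14 value was the lower one in each of these classes, by modest amounts. The ratios were 0.820 (0.767 to 0.876), 0.727 (0.640 to 0.826), 0.830 (0.789 to 0.872), 0.751 (0.693 to 0.813) and 0.716 (0.642 to 0.798).

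The same direction held in neutrophils for Timp2 (179 and 134 CPM, ratio 0.745, 0.587 to 0.939) and in olfactory neurons (94.0 and 68.1 CPM, ratio 0.724, 0.562 to 0.93). In monocytes it passed 1.5-fold, from 64.5 to 27.6 CPM (ratio 0.428, 0.268 to 0.658), but not after thinning cells to 2000 UMIs (log2 ratio -0.44). Over the 10 classes where it was measured, Timp2 was lower in 9, each with an interval below 1. Schwann or glial cells were the exception, at 255 and 317 CPM (ratio 1.24, 0.875 to 1.77). Within single clusters with at least 20 cells in each library it was lower in 16 of 20, in 15 of them with the interval below 1. Fibroblast cluster 7, led by Mgp and Mfap4, showed no clear difference (1004 and 969 CPM, ratio 0.966, 0.857 to 1.09). The neutrophil clusters differed, at 143 and 75.0 CPM in cluster 26 (ratio 0.526, 0.370 to 0.735) and 317 and 332 in cluster 28 (1.05, 0.744 to 1.47). Ratios were also above 1 in macrophage cluster 32 (1.64, 0.998 to 2.67) and T cells (1.93, 0.855 to 4.57).

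Timp3, the inhibitor that binds to matrix and also blocks several ADAMs, differed less evenly. It was at 1306 CPM in sham and 982 in JVL-14 Schwann or glial cells, and at 742 and 557 in osteoblast lineage cells, with intervals of the ratio below 1 in both (0.751, 0.639 to 0.883 in osteoblast lineage cells). Fibroblasts had 492 and 504 CPM (ratio 1.02, 0.954 to 1.10) and tendon cells 487 and 534 (ratio 1.10, 0.994 to 1.21). Timp1, an inducible secreted inhibitor, went in opposite directions between stromal classes. Arachnoid barrier cells had 287 CPM (272 to 303) against 184 (162 to 209) after ligature (ratio 0.641, 0.557 to 0.735). It was at 409 and 265 in osteoblast lineage cells (ratio 0.648, 0.514 to 0.814), where 5 cells held 56.9% and 55.5% of the UMIs. Fibroblasts had 118 CPM (109 to 129) and 150 (135 to 166), a ratio of 1.26 (1.10 to 1.45), and tendon cells 72.2 and 99.7 (ratio 1.38, 1.09 to 1.75). Within fibroblast clusters the Timp1 ratio was 1.38 (1.09 to 1.74) in cluster 7. Its interval held 1 in cluster 0 (1.16, 0.925 to 1.45) and cluster 6 (1.09, 0.828 to 1.42). In arachnoid barrier cells the Timp1 call was lost in 6 of 16 alternative settings, with log2 ratios from -0.90 to -0.26 over all 16, and in osteoblast lineage cells it became 0.34 on the log2 scale without doublet removal.

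The 8 osteoblast markers summed to 19847 CPM in sham and 11395 in JVL-14 osteoblast lineage cells, and 4 were higher in JVL-14. Spp1, a bone matrix gene, was at 9790 and 1726, Ibsp at 1314 and 678, Bglap2 at 3975 and 3630 and Dmp1, an osteocyte gene, at 43.2 and 0, whereas the transcription factors Sp7 (71.4 and 143) and Runx2 (284 and 406), Alpl (1252 and 1496) and Bglap (3117 and 3317) were higher. The 9 erythroid markers summed to 252 and 14211 CPM there. The part of these differences in the Timp values was not tested.

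**Figure D2:**
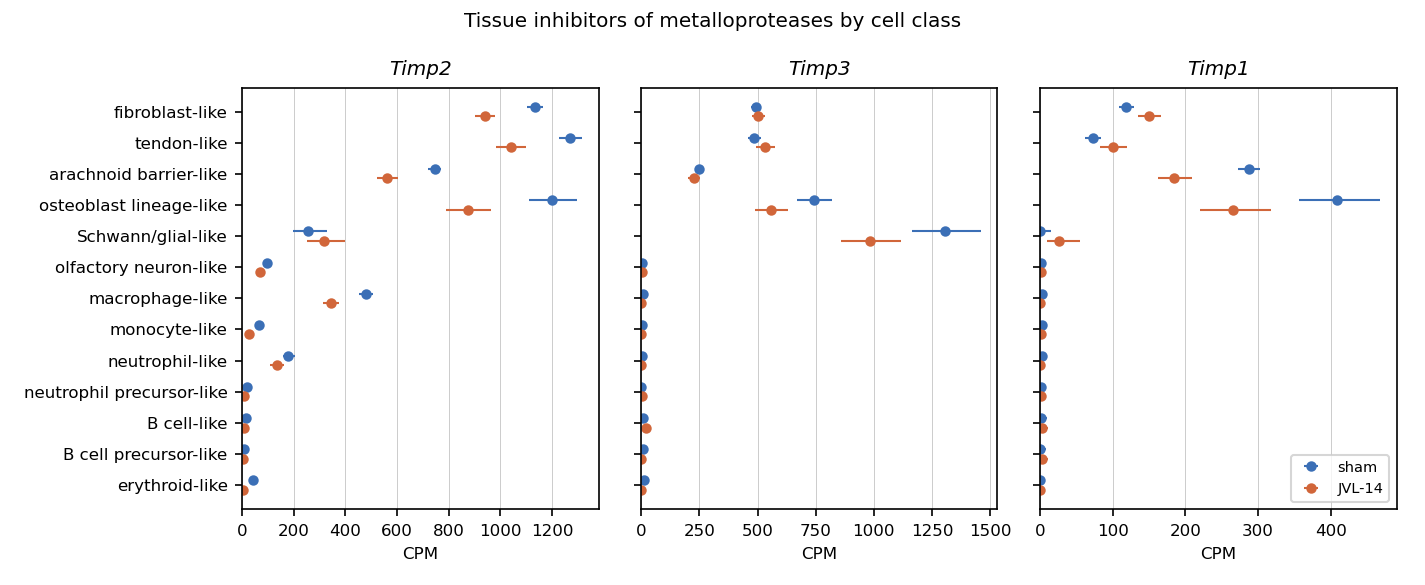
CPM of Timp2, Timp3 and Timp1 (panels) in the 13 compared classes, with sham in blue and JVL-14 in orange and bars for the exact Poisson 95% interval. Timp2 in JVL-14 lies left of sham in 9 of the 10 classes where it was measured, while Timp1 lies left in arachnoid barrier and osteoblast lineage cells and right in fibroblasts and tendon cells.

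Timp4 and the other endothelial values below were chosen after they were seen. In capillary endothelial cells (cluster 22, led by Fabp4 and Gpihbp1) it was at 1958 CPM in 71 sham cells and at 994 in 3 JVL-14 cells, against 16.2 and 0 CPM in the other blood endothelial cluster (97 and 43 cells). Fibroblasts had 0.675 and 0.418 CPM of Timp4. Blood endothelial cells (168 and 46) were under the limit for comparison, and the 3 capillary cells in JVL-14 allow no ratio. Their other leading members were Timp3 (1578 and 729 CPM), Adamts1 (241 and 338), Adam15 (269 and 278) and Adam10 (200.2 and 308). No cluster took the name of lymphatic endothelial cells.

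The gelatinase Mmp2 and its membrane-bound activator Mmp14 were stromal genes that differed by less than 1.5-fold in the 4 stromal classes. Mmp2 was at 806 CPM in sham and 805 in JVL-14 osteoblast lineage cells, 458 and 487 in tendon cells, 263 and 293 in fibroblasts and 84.1 and 90.1 in arachnoid barrier cells. Its ratios in those classes lay between 0.999 and 1.11. Mmp14 was at 520 and 490 CPM in osteoblast lineage cells, 225 and 264 in tendon cells, 167 and 194 in fibroblasts and 143 and 172 in arachnoid barrier cells, with the interval above 1 in the last 3 (ratios 1.17, 1.16 and 1.20).

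Neutrophils carried Mmp8 and Mmp9 at high levels in both libraries. Mmp8, the neutrophil collagenase, was at 1817 CPM (1746 to 1890) in sham and 1639 (1551 to 1730) in JVL-14 (ratio 0.902, 0.843 to 0.965), and Mmp9, the gelatinase of neutrophil granules, at 1020 and 966 (ratio 0.947, 0.866 to 1.03). The direction of Mmp8 turned with at least 500 genes per cell (log2 ratio 0.24). Adam8, a sheddase of leukocytes, was at 252 and 251 CPM. Mmp25, a membrane-type enzyme of leukocytes, was the 1 of 8 measured members past 1.5-fold there, at 120 and 79.3 CPM (ratio 0.661, 0.487 to 0.890), where 3.20% of all measured genes were past it and lower. In 6 of 16 alternative settings, among them the stricter filters on genes per cell and mitochondrial UMIs, Mmp25 was no longer past 1.5-fold.

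Mmp9 was lower in JVL-14 in both other classes where it was measured. Tendon cells had 91.5 CPM (80.0 to 104) in sham and 27.0 (18.5 to 38.2) in JVL-14 (ratio 0.295, 0.197 to 0.429), and macrophages 48.3 (40.5 to 57.2) and 14.6 (8.80 to 22.8) (ratio 0.302, 0.177 to 0.491). The intervals of the libraries do not overlap in either class. Both calls held in every alternative setting that gave a value (16 and 15). At 2000 UMIs per cell, 10.3% of 340 sham and 5.00% of 160 JVL-14 tendon cells had an Mmp9 UMI, with 24 and 19 shallower cells left out, against 0 of 149 and 0 of 135 B cells, and without that thinning 23.4% and 11.2% of tendon cells did. Neutrophil RNA was low in these cells: Mmp8 had 1 UMI in sham tendon cells and none in macrophages of either library, and S100a8 was at 23.6 CPM in the 85 sham tendon cells with Mmp9 against 23.8 in all of them. Osteoclast genes were also read: Acp5 was at 65.5 CPM in sham macrophages with Mmp9, against 26.5 in all sham and 11.5 in all JVL-14 macrophages. In sham tendon cells with Mmp9 it was at 84.1 against 62.1 in all, and Ctsk at 613 against 518, while Ocstamp had no UMI in tendon cells. Their part in the Mmp9 values was not tested.

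Mmp13, the collagenase of bone and cartilage, was at 1012 CPM in sham and 778 in JVL-14 osteoblast lineage cells (ratio 0.769, 0.670 to 0.881). Outside that class it sat in few cells: in tendon cells it was at 40.3 and 20.3 CPM (ratio 0.503, 0.308 to 0.792), in 13 of 364 and 6 of 179 cells, with 74.0% and 95.8% of the UMIs in 5 cells. That difference turned to a log2 ratio of 0.82 without doublet removal. Mmp3, stromelysin 1, fell just under the limit for measured genes and was chosen after its values were seen. It was at 31.3 CPM in sham and 8.37 in JVL-14 fibroblasts (139 and 20 UMIs, from 18 and 4 cells) and at 30.2 and 0.845 in tendon cells (75 UMIs and 1). Mmp12, the macrophage elastase, was at 33.7 and 6.63 CPM in monocytes (ratio 0.197, 0.07 to 0.450), from 12 and 2 cells, and at 17.5 and 13.1 in macrophages. The other genes of the chromosome 9 group whose window held the heptamer had few or no UMIs: Mmp10 had 1 in all, and Mmp1a, Mmp1b and Mmp7 had 0.

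**Figure D3:**
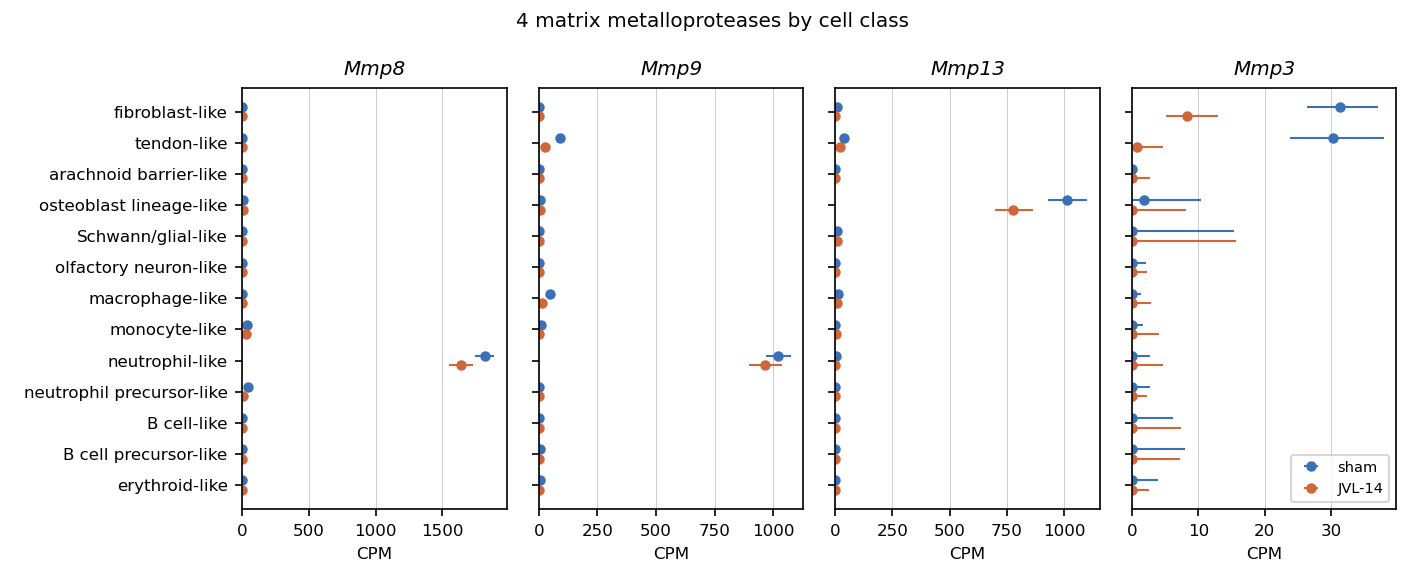
CPM of Mmp8, Mmp9, Mmp13 and Mmp3 (panels, each with its own linear axis from 0) in the 13 compared classes, with sham in blue, JVL-14 in orange and bars for the exact Poisson 95% interval. Mmp8 and Mmp9 peak in neutrophils, Mmp13 in osteoblast lineage cells and Mmp3 in fibroblasts and tendon cells, where the sham value is the higher one.

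Adamts5, the main aggrecan-cleaving enzyme of cartilage in mice, was lower in JVL-14 fibroblasts and higher in JVL-14 arachnoid barrier cells. Fibroblasts had 134 CPM in sham and 45.6 in JVL-14 (ratio 0.341, 0.275 to 0.419). The level was uneven within the class and highest in fibroblast cluster 30, led by Clec3b and Ccl11, with 61 sham and 2 JVL-14 cells, where sham cells were at 749 CPM. Without clusters that hold under 10% of either library the log2 ratio was -0.81, against -1.55 with them, and as a mean of clusters it was -0.54, no longer past 1.5-fold. Within clusters Adamts5 was at 127 and 77.4 CPM in cluster 0 (ratio 0.609, 0.467 to 0.788), 54.9 and 20.2 in cluster 6 (0.368, 0.195 to 0.651) and 35.5 and 16.2 in cluster 7 (0.457, 0.169 to 1.06). In arachnoid barrier cells it was at 21.0 and 40.6 CPM (ratio 1.94, 1.36 to 2.73), a call lost in 5 of 15 alternative settings. Osteoblast lineage cells, the compared class where it was highest, had 300.4 and 249.7 CPM (ratio 0.831, 0.647 to 1.06).

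Other proteoglycan-cleaving members did not share one direction. Adamts15 was lower in JVL-14 fibroblasts (36.0 and 18.8 CPM, ratio 0.523, 0.367 to 0.731), although 5 cells held 62.2% of its JVL-14 UMIs and the call was lost in 4 of 14 alternative settings. Adamts1, an inducible enzyme that cuts versican, was at 376 and 520 CPM in arachnoid barrier cells (ratio 1.38, 1.26 to 1.51). Fibroblasts had 243 and 241 CPM, but their clusters differed. The ratio was 0.801 (0.700 to 0.914) in cluster 0 and 1.38 (1.12 to 1.71) in cluster 6. Its interval held 1 in cluster 7 (1.48, 0.970 to 2.23) and cluster 25 (0.924, 0.605 to 1.39). At clustering resolution 2 the arachnoid log2 ratio of Adamts1 was -0.06. In macrophages Adamts1 was at 6.80 and 43.1 CPM (ratio 6.33, 3.71 to 11.3), but 5 of 346 JVL-14 cells held 85.7% of the UMIs, and the other cells had 2.17 and 6.30 CPM. Adamts9, a secreted enzyme close to the cell surface, was higher in osteoblast lineage cells (97.6 and 161 CPM, ratio 1.64, 1.13 to 2.40, lost in 4 of 15 alternative settings) and fibroblasts (77.2 and 109 CPM, ratio 1.41, 1.19 to 1.66), and its ratio was above 1 in all 4 classes where it was measured.

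Adamts2, which trims the N-propeptides of fibrillar procollagens, was at 389 and 353 CPM in tendon cells (ratio 0.907, 0.807 to 1.02), 278 and 225 in osteoblast lineage cells, 243 and 285 in fibroblasts (ratio 1.17, 1.06 to 1.29) and 226 and 222 in arachnoid barrier cells. None of these passed 1.5-fold. Adamts3, which with CCBE1 activates the lymphatic growth factor VEGF-C, was at 19.8 and 14.4 CPM in tendon cells (ratio 0.727, 0.393 to 1.28) and 7.66 and 10.5 in fibroblasts (ratio 1.37, 0.781 to 2.36). Its partners Vegfc (30.8 and 28.4 CPM in fibroblasts) and Ccbe1 (5.85 and 2.51) had ratios whose intervals held 1 as well, so no difference was detectable at this depth. These 3 genes were chosen after their values were seen.

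Adamtsl1, a matrix protein of the family with no protease domain, was higher in JVL-14 fibroblasts, at 175 CPM against 99.7 in sham (ratio 1.76, 1.53 to 2.01). That call was lost in 3 of 16 alternative settings. The difference was seen in each fibroblast cluster with at least 20 cells in both libraries: 48.6 and 91.5 CPM in cluster 0, 162 and 272 in cluster 6, 147 and 243 in cluster 7, and 32.0 and 107 in cluster 25, with every interval of the ratio above 1. Tendon cells had 122 and 178 CPM (ratio 1.46, 1.22 to 1.75). Arachnoid barrier cells, the compared class where Adamtsl1 was highest, had 337 and 345 CPM (ratio 1.02, 0.920 to 1.14). Unnamed cluster 20 (102 and 24 cells), which was not compared, had 413 and 520 CPM. Among the compared classes Adamtsl3 was also highest in arachnoid barrier cells, at 211 and 194 CPM.

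**Figure D4:**
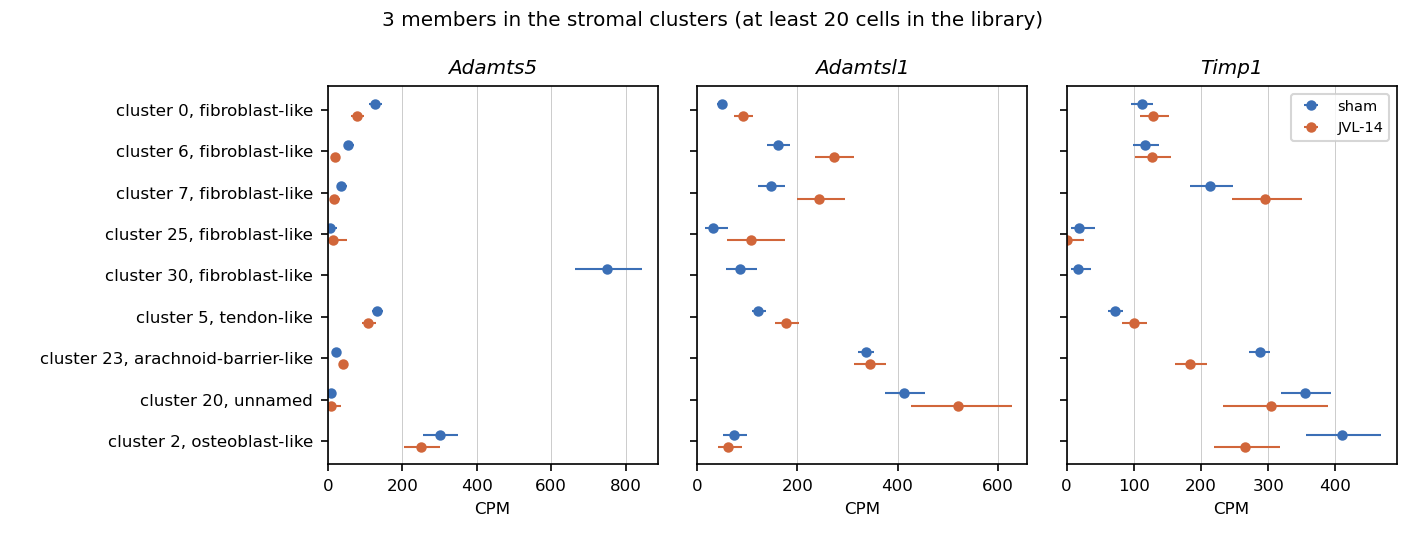
CPM of Adamts5, Adamtsl1 and Timp1 (panels) in 9 stromal clusters, with sham in blue, JVL-14 in orange and bars for the exact Poisson 95% interval; a library with under 20 cells in a cluster is not drawn. Cluster 30 stands out with 749 CPM of Adamts5 in sham and has no JVL-14 point, and Adamtsl1 in JVL-14 lies to the right in the 4 fibroblast clusters with both points.

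Among the ADAMs, the number of classes where a gene was measured ran from 13 for Adam10 and 10 for Adam17 to 2 for Adam8 and 1 for Adam28. Adam10, which cleaves Notch receptors, was measured in all 13 classes and among them was highest in B cell precursors in sham (309 CPM, and 212 in JVL-14) and in Schwann or glial cells in JVL-14 (267, and 226 in sham). Adam17, which releases TNF, was at 67.0 and 71.9 CPM in Schwann or glial cells, and at 13.5 and 38.4 in B cells (8 and 19 UMIs, ratio 2.84, 1.19 to 7.51). Adam19 was at 137 and 127 CPM in B cell precursors, and Adam28 at 124 and 136 in olfactory neurons, which come from the nasal epithelium and are not dural cells. Adam15 was at 68.0 and 84.6 CPM in macrophages.

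In olfactory neurons Adam10 was at 35.4 and 22.3 CPM (ratio 0.629, 0.403 to 0.969). Schwann or glial cells had lower JVL-14 values of Adam23, a protease-inactive ADAM of the nervous system (243 and 144 CPM, ratio 0.593, 0.376 to 0.921), and of its relative Adam11 (71.2 and 16.9 CPM, 17 and 4 UMIs). Each of these rests on fewer than 100 UMIs in all. In neutrophil precursors Mmp8 was at 39.8 and 4.96 CPM, from 10 and 2 cells. The 6 precursor markers summed to 2315 and 7026 CPM in that class, with Elane at 486 and 2412 and Mpo at 306 and 1415, the 10 neutrophil markers to 793 and 288 and the 9 erythroid markers to 9273 and 491, and their part in the Mmp8 value was not tested. Erythroid cells showed Adam10 at 13.8 and 87.4 CPM and Timp2 at 41.3 and 2.08, but the median log2 ratio of all genes measured there was 2.45, and relative to that median Adam10 differed by 0.16. One erythroid cluster went from 63 sham to 30 JVL-14 cells and the other from 12 to 77. Macrophage Mmp14 was at 15.8 and 27.7 CPM (ratio 1.76, 1.10 to 2.79), with a log2 ratio of -0.34 as a mean of clusters, and fibroblast Mmp19 at 21.2 and 33.9 (ratio 1.60, 1.17 to 2.18), a call lost in 7 of 14 alternative settings.

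The counts of members past 1.5-fold are given here beside the share of all measured genes past it in the same direction. In fibroblasts 2 of 23 measured members were past 1.5-fold and higher (all genes 2.13%) and 2 lower (4.47%). In arachnoid barrier cells 1 of 20 was higher (3.94%) and 1 lower (4.05%), in tendon cells 0 of 22 higher (3.49%) and 2 lower (3.92%), and in osteoblast lineage cells 1 of 21 higher (3.84%) and 1 lower (5.07%). Macrophages had 2 of 9 higher (3.40%) and 1 lower (4.48%), monocytes 0 of 7 higher (3.97%) and 2 lower (4.72%), and neutrophils 0 of 8 higher (8.88%). Schwann or glial cells had 0 of 10 higher (11.3%) and 2 lower (9.35%), olfactory neurons 0 of 8 higher (3.59%) and 1 lower (4.77%), and neutrophil precursors 0 of 3 higher (11.0%) and 1 lower (15.1%). B cells had 1 of 3 higher (8.0%) and 0 lower (2.61%), B cell precursors 0 of 4 higher (3.41%) and 0 lower (5.36%), and erythroid cells 1 of 2 higher (87.1%) and 1 lower (3.75%). Over the 140 measured pairs of member and class, 8 were past 1.5-fold and higher (5.71%) and 15 lower (10.7%), against 6.83% and 5.52% of 66828 pairs of all genes. Of the 23 pairs past 1.5-fold, 6 stayed past it in every alternative setting that gave a value, and these were Mmp9 in tendon cells (16 settings) and macrophages (15), Adamts1 in macrophages (13), Timp2 in erythroid cells (11), Mmp8 in neutrophil precursors (7) and Mmp12 in monocytes (5). A setting that put a pair under the limit for measured genes gave no value and so could not undo its call. Adamts1 in macrophages had 85.7% of its JVL-14 UMIs in 5 cells. Timp2 in erythroid cells had 3 JVL-14 UMIs, and 5 cells held 84.6% of its sham UMIs. Mmp8 in neutrophil precursors and Mmp12 in monocytes rest on 2 JVL-14 cells each.

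The median log2 ratio of the measured members was 0.04 in fibroblasts (all genes 0.01), 0.05 in tendon cells (0.03), -0.03 in arachnoid barrier cells (0.04), 0.04 in macrophages (-0.00), -0.20 in osteoblast lineage cells (0.00), -0.29 in monocytes (-0.03), -0.33 in Schwann or glial cells (0.02), -0.11 in neutrophils (0.11) and -0.10 in olfactory neurons (0.01). The number of measured members behind these medians ran from 7 in monocytes to 23 in fibroblasts. Summed over each family, the 4 Timp genes were lower in JVL-14 in arachnoid barrier cells (1282 and 970 CPM, ratio 0.757, 0.712 to 0.804), osteoblast lineage cells (2353 and 1697, 0.721, 0.658 to 0.790), macrophages (489 and 346, 0.708, 0.635 to 0.788) and fibroblasts (1745 and 1595, 0.914, 0.879 to 0.950). The interval of the Timp sum was also below 1 in tendon cells (ratio 0.915), monocytes (0.418), neutrophils (0.730), olfactory neurons (0.778) and erythroid cells (0.0378). It held 1 in the other compared classes. Timp2 alone gave 1133 and 940 CPM of the fibroblast sum, so the sum is not separate from the Timp2 values above. In fibroblasts the summed Mmp genes were at 594 and 657 CPM (ratio 1.11, 1.04 to 1.18), whereas in osteoblast lineage cells they were at 2599 and 2334 (0.898, 0.828 to 0.974). Fibroblasts were the only compared class with the interval of this sum above 1. It was also below 1 in neutrophils (ratio 0.907), macrophages (0.777), monocytes (0.632), Schwann or glial cells (0.625), neutrophil precursors (0.448) and erythroid cells (0.0344).

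**Figure D5:**
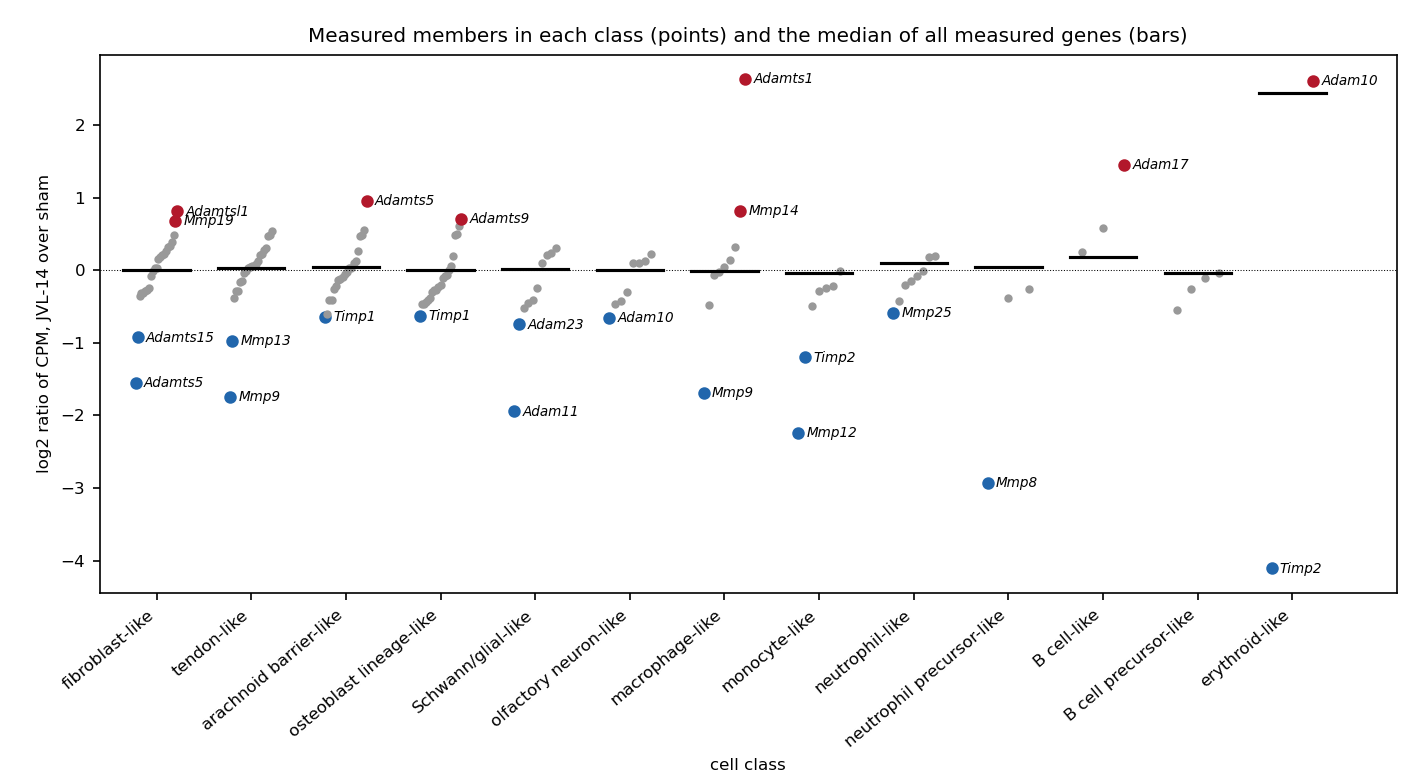
Log2 ratio of CPM, JVL-14 over sham, for each measured member (points) in the 13 compared classes, with the median of all measured genes as a black bar. Members past 1.5-fold with an interval off 1 are red (8 higher) or blue (15 lower) and named, and in erythroid cells the median of all genes is itself at 2.45.

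Genes that act beside the members were followed from lists, and those named were chosen after their values were seen. Of 6 genes of plasminogen activation, which switches on several MMPs, 3 were measured in osteoblast lineage cells and all 3 were past 1.5-fold and lower: Serpine2 (719 and 283 CPM), Plat (223 and 129) and Plaur (62.0 and 6.69). Of all genes measured in that class, 5.07% were past it and lower. The part of the marker differences of that class, given above, was not tested. In Schwann or glial cells Plat (176 and 63.5 CPM) and Serpine2 (377 and 220) were past 1.5-fold and lower too, as were 9.35% of all measured genes. In fibroblasts Serpine2, a protease inhibitor, was at 139 and 147 CPM. The membrane-anchored inhibitor Reck was at 47.3 and 43.1 CPM in fibroblasts and 86.7 and 107 in tendon cells, and the clearance receptor Lrp1 at 773 and 714 in fibroblasts, none past 1.5-fold. Of the pappalysins, metalloproteases of another family that free insulin-like growth factors, Pappa (56.7 and 111 CPM) and Pappa2 (19.1 and 36.4) were past 1.5-fold and higher in JVL-14 fibroblasts. In arachnoid barrier cells Pappa2 was past it and lower (28.5 and 18.0 CPM, ratio 0.632, 0.391 to 0.982) and Pappa was at 159 and 165. Among hyalectans, substrates of ADAMTS enzymes, Vcan was lower in fibroblasts (28.8 and 12.97 CPM, ratio 0.450, 0.294 to 0.670) and higher in osteoblast lineage cells (43.2 and 84.7 CPM, ratio 1.96, 1.14 to 3.45).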

How the data were processed

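The deposited files hold raw UMI counts per gene and barcode, not normalised, for 1 sham and 1 JVL-14 library. Cell Ranger 8.0.0 produced them, per the file headers, and per the submitters' processing notes the build was mm39. Which annotation was used the labels and headers do not say. Deposited totals were 33996641 and 18796260 UMIs over 5495 and 3004 barcodes. Barcodes with under 200 genes or over 10% mitochondrial UMIs were dropped. Scrublet's automatic threshold marked 0.121% and 0.230% of barcodes, so barcodes at or above the score that bounds the top 5% of each library were removed, ties included (279 of 4951 and 137 of 2608).

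Cells were clustered in scanpy 1.11.5 (UMIs scaled to 10000, log transformed, 2000 variable genes with all members left out, 30 components, 15 neighbours, Leiden resolution 1), which gave 34 clusters. No annotation by the authors was used. Of them 32 were named from marker lists for 34 classes and fell into 22 classes, and 2 stayed unnamed. The numeric limits of naming, which set a score of at least 0.5 and at least 3 markers raised 1.5-fold in 10% of cells, were settled after clusters had been seen, so classes may differ from the study's. The members, marker lists and pathway lists were chosen with earlier results of these data known.

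Summed UMIs of each class were given as CPM. Log2 ratios had 0.5 added to each count. Named genes were taken from the 5 members with the highest mean CPM in each compared class. Not all of these are given with values in every class, and some are also given in other classes. Every measured member past 1.5-fold was named, and members with at least 100 UMIs were named by leading class. Others named are said to be chosen later. No test was possible with 1 library per group. The interval code was tested on simulated data. A planned split of ADAM genes by their catalytic motif was not made, since it needs protein sequences not used here. Promoter windows are from RefSeq, GRCm38.p6. In all, 16 alternative settings were tried. Some results are not reported here.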

Additional observations from a re-analysis of the deposited data

Results flagged for a closer look

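Adamts5 and Adam10 were each past 1.5-fold in opposite directions in 2 classes. The log2 ratio of Adamts5 was -1.55 in fibroblasts and 0.96 in arachnoid barrier cells, and that of Adam10 was -0.66 in olfactory neurons and 2.62 in erythroid cells. The difference between the classes was not tested, since each group has 1 library. For Adam10, the median of all genes in erythroid cells was 2.45, and the 9 erythroid markers summed to 909278 CPM in sham and 728592 in JVL-14.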

How the results depend on the processing

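With 1 library per group no replicate could be left out, so the 16 alternatives changed filters, clustering, weighting and limits. The count of members highest in the same class in both libraries ran from 30 to 38 (35 in the reported setting) over 11 alternatives, and that of members led by a stromal class from 21 to 28 (24). Pairs past 1.5-fold numbered from 6 to 21 lower and from 3 to 12 higher over all 16 alternatives. The 15 lower pairs became 9 with at least 500 genes per cell, 6 when 50 CPM and UMIs were required, and 8 at 2-fold, and 21 without doublet removal or when 10 CPM and UMIs were required. The 8 higher pairs became 5 at clustering resolution 2 and 3 without the 5 cells richest in the gene, at 50 CPM and UMIs, and at 2-fold, and 12 when members were used for clustering. Without those 5 cells the median log2 ratio in arachnoid barrier cells was -0.22. Of the 23 pairs past 1.5-fold, the log2 ratio changed sign for 3: Mmp13 in tendon cells (0.82) and Timp1 in osteoblast lineage cells (0.34) without doublet removal, and Mmp14 in macrophages (-0.34) as a mean of clusters. The cause was not tested. Pairs under the limit for measured genes in an alternative got no value there. Timp2 stayed lower under every alternative in fibroblasts (log2 from -0.34 to -0.20) and tendon cells (-0.38 to -0.25). No paired analysis was possible because each group has 1 library and the labels give no replicate numbers. Depth limits genes under about 20 UMIs per class.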
